A study of Homo sapiens with 4 samples.

Results

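The autophagy and lysosome genes described here are 36 genes, chosen by name from the 58735 genes of the deposited FPKM table, and each of the 36 symbols matched a single row. They divide into 15 autophagy factors, 11 lysosomal enzymes, 7 other lysosomal proteins and 3 transcription factors. They were measured by RNA sequencing of cells named as HFL1, a line of fibroblasts grown from human fetal lung, with 2 KO and 2 WT libraries. KO stands for knockout of CALU, which encodes calumenin, a protein of the endoplasmic reticulum that binds calcium, and the stated purpose was to follow senescence and fibrosis programmes after its loss. The labels give no other treatment, time or clone. Because no label says that replicates are separate cultures or clones, each p-value reflects library-to-library spread only, and that spread may be technical.

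Macroautophagy encloses cytoplasmic material in a double membrane and delivers it to the lysosome. The ULK1 kinase and the Beclin 1 lipid kinase complex start the membrane, WIPI proteins read its phosphoinositide, and the ATG12, ATG5 and ATG16L1 complex, with the E1-like enzyme ATG7, couples ATG8 proteins (the LC3 and GABARAP families) to lipid. Cargo receptors such as p62, the product of SQSTM1, hold ubiquitinated cargo and ATG8 proteins at the same time. Lysosomes then break the contents down with acid hydrolases, and TFEB, TFE3 and MITF are transcription factors known for switching on genes of both systems. Lysosomal beta-galactosidase, encoded by GLB1, is the source of the activity stained as a marker of senescent cells.

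The libraries held 17699349 and 16622382 recovered reads in KO and 17715774 and 16173899 in WT. CALU stood at 6.59 and 5.95 FPKM in KO, against 87.7 and 81.8 FPKM in WT, so the targeted gene followed the labels (limma adjusted p = 0.00154). The defining fibroblast markers were scarce in these libraries: 8 of 12 stayed below 1 FPKM in every library, and COL1A2 and POSTN were at 0. Of the others, COL1A1 was higher in KO at a low level (3.04 and 3.16 FPKM in KO, against 0.234 and 0.280 FPKM in WT) and NT5E was lower. The summed fibroblast list, mostly S100A4, which did not pass (limma adjusted p = 0.0789), ranged from 473 to 742 FPKM in KO and from 975 to 1381 FPKM in WT. Of 8 epithelial markers, 3 (KRT5, SFTPC and SCGB1A1) stayed below 1 FPKM in every library and 4 (KRT8, KRT18, KRT19 and CDH1) were higher in KO, with summed levels of 1529 to 1759 FPKM in KO and 701 to 808 FPKM in WT. Keratins were abundant in WT too, with KRT8 at 349 and 425 FPKM and KRT18 at 326 and 356 FPKM. With most fibroblast markers below 1 FPKM, this profile is unlike the named cell type in both groups. The part of these markers in the results below was not tested. All 8 markers of macrophages and other leukocytes, cells rich in lysosomes, stayed below 1 FPKM in every library, with CD163 and TYROBP at 0. All 5 endothelial markers stayed below 1 FPKM as well. Bulk values cannot separate fewer cells that express a gene from less RNA per cell.

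Of the 15 autophagy factors 4 fell in KO, and no lysosomal enzyme passed the test. SQSTM1 and OPTN, which bring cargo to the forming membrane, GABARAPL1, an ATG8 protein, and WIPI2, which recruits the lipidation machinery, fell. All 36 genes passed the filter on low values, 1 FPKM in at least 2 libraries. Of these, 4 fell and 0 rose at a limma adjusted p under 0.05, with every log2 change taken on the log2(FPKM + 1) scale. At an unadjusted p under 0.05 there were 11 of the 36, against 38.9% of all genes tested, the share to hold beside every such count below. Limma voom on recovered reads called 1 higher and 8 lower (2.78% and 22.2%), against 13.95% and 15.7% of all genes. The 1 higher gene, GABARAP, met the filter only through the KO libraries, where it was higher. With no filter on low values the count that fell was 1, GABARAPL1, and calls over all genes were far fewer as well. Without either WT library, calls became fewer among the 36 and also over all genes, as the closing section gives. The share that fell, 11.1% of the 36, equals the background, since 11.1% of the 14100 genes tested were called lower. The share called in either direction, also 11.1%, lay below the background of 23.3%, and none rose where 12.1% of all genes did. In the limma fit of log2(FPKM + 1) the list as a whole was therefore not set apart by the share that fell. Both KO libraries lay below both WT libraries for 19 of the 36 (52.8%), against 31.3% of all genes. Both lay above for 7 (19.4%), GABARAP among them, against 34.4%. These shares, and the smaller share of calls in either direction, were not tested for the list. Within it, all 4 calls were among the 15 autophagy factors (26.7%), with 0 among the 11 lysosomal enzymes, where 2 had an unadjusted p under 0.05 and limma voom called 2 lower, and 0 among the other 10 genes, where 3 had an unadjusted p that low. The difference between those shares was not tested.

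**Figure D1:**
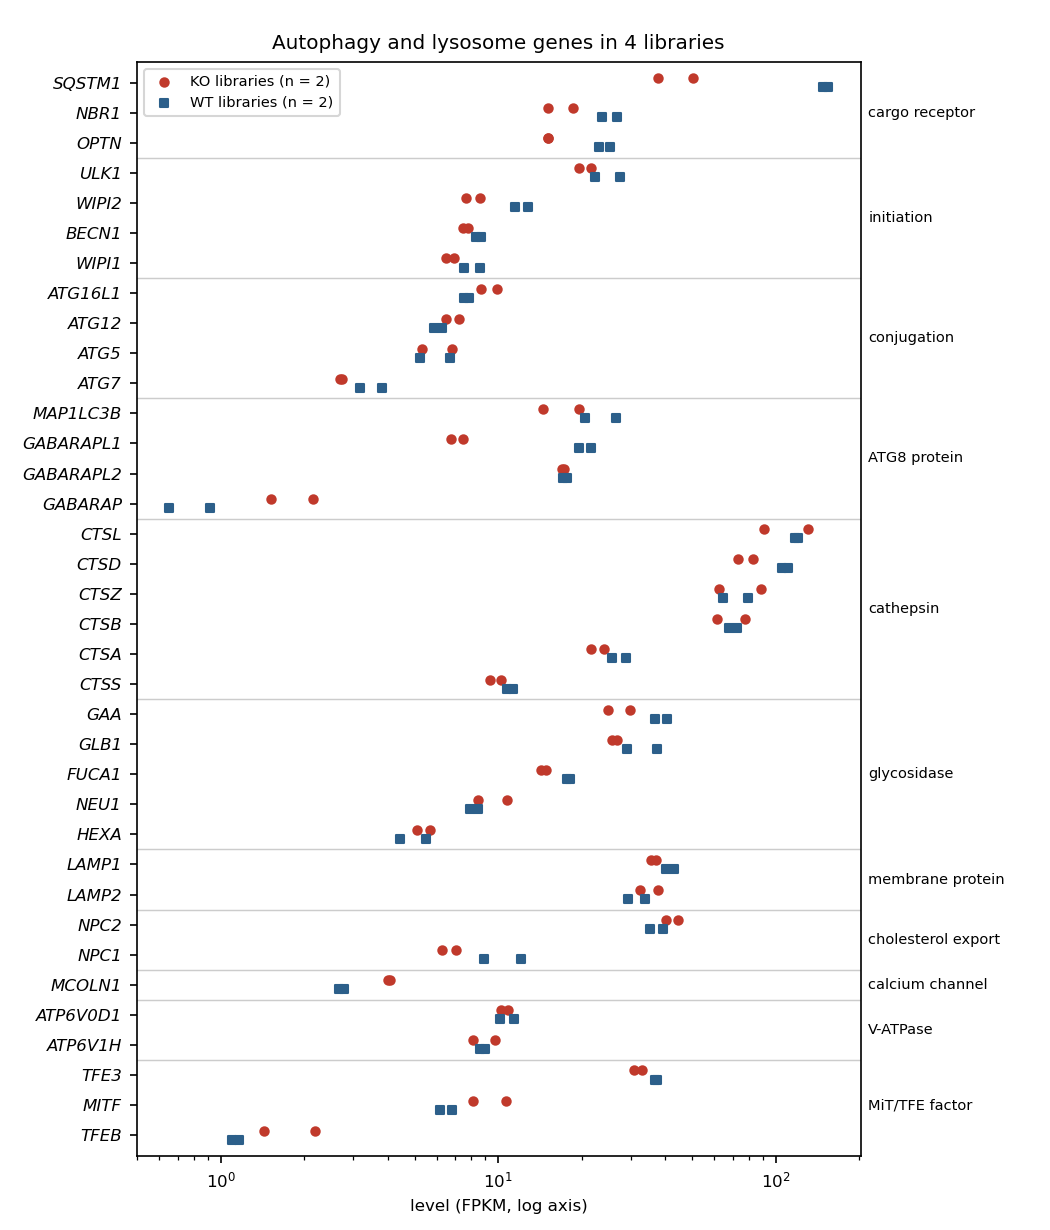
Level in FPKM (log axis) of each of the 36 genes in every library, with circles for the 2 KO libraries and squares for the 2 WT libraries, in blocks by role. SQSTM1 and GABARAPL1 show the widest gaps between KO and WT, while the cathepsins reach levels as high as 131 FPKM with KO and WT points interleaved for CTSL, CTSZ and CTSB.

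The 15 autophagy factors had a median of -0.26, with values between -1.77 and 0.66, and 11 of them were negative. The value of 0.66 is that of GABARAP. That gene met the filter on low values only through the KO libraries, where it was higher, so this end of the range supports nothing. The 11 lysosomal enzymes had a median of -0.16, between -0.49 and 0.20, with 8 negative. The median over all 14100 genes tested was 0.03. Both KO libraries lay below both WT libraries for 10 of the 15 autophagy factors (66.7%) and for 6 of the 11 enzymes (54.5%), against a background of 31.3% of all genes. Both KO libraries lay above both WT libraries for 3 autophagy factors, GABARAP among them, and 0 enzymes, against 34.4% of all genes.

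The contrast between enzymes and factors can be put as a value per library. The mean log2 level of the 11 enzymes exceeded that of the 15 factors by 1.32 and 1.51 in KO, against 1.21 and 1.24 in WT. The gap lay higher in each KO library than in each WT library, by 0.19 between the group means (1.41 ± 0.13 in KO and 1.23 ± 0.02 in WT, SD, n = 2 each). No p is given for this score, since its genes were chosen with earlier results known. Its factors include GABARAP, which met the filter on low values only through the KO libraries. The mean of the factors was 3.41 in KO and 3.76 in WT, a difference of -0.35, and that of the enzymes was 4.83 in KO and 4.99 in WT, a difference of -0.16. Without KO replicate 2 the difference in the gap was 0.09, and without KO replicate 1 it was 0.28. SQSTM1 and GABARAPL1 had the most negative log2 changes of the 15 factors (-1.77 and -1.41). Leaving them out, an alternative chosen after seeing the data, therefore had to lower the difference. With the other 13 factors the gap was 1.43 and 1.66 in KO, against 1.52 and 1.57 in WT, a difference of -0.0039 with overlapping libraries. Those 13 factors averaged 3.28 in KO and 3.44 in WT, a difference of -0.16. No enzyme was left out in turn, so these values support no comparison of the remaining factors with the enzymes.

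**Figure D2:**
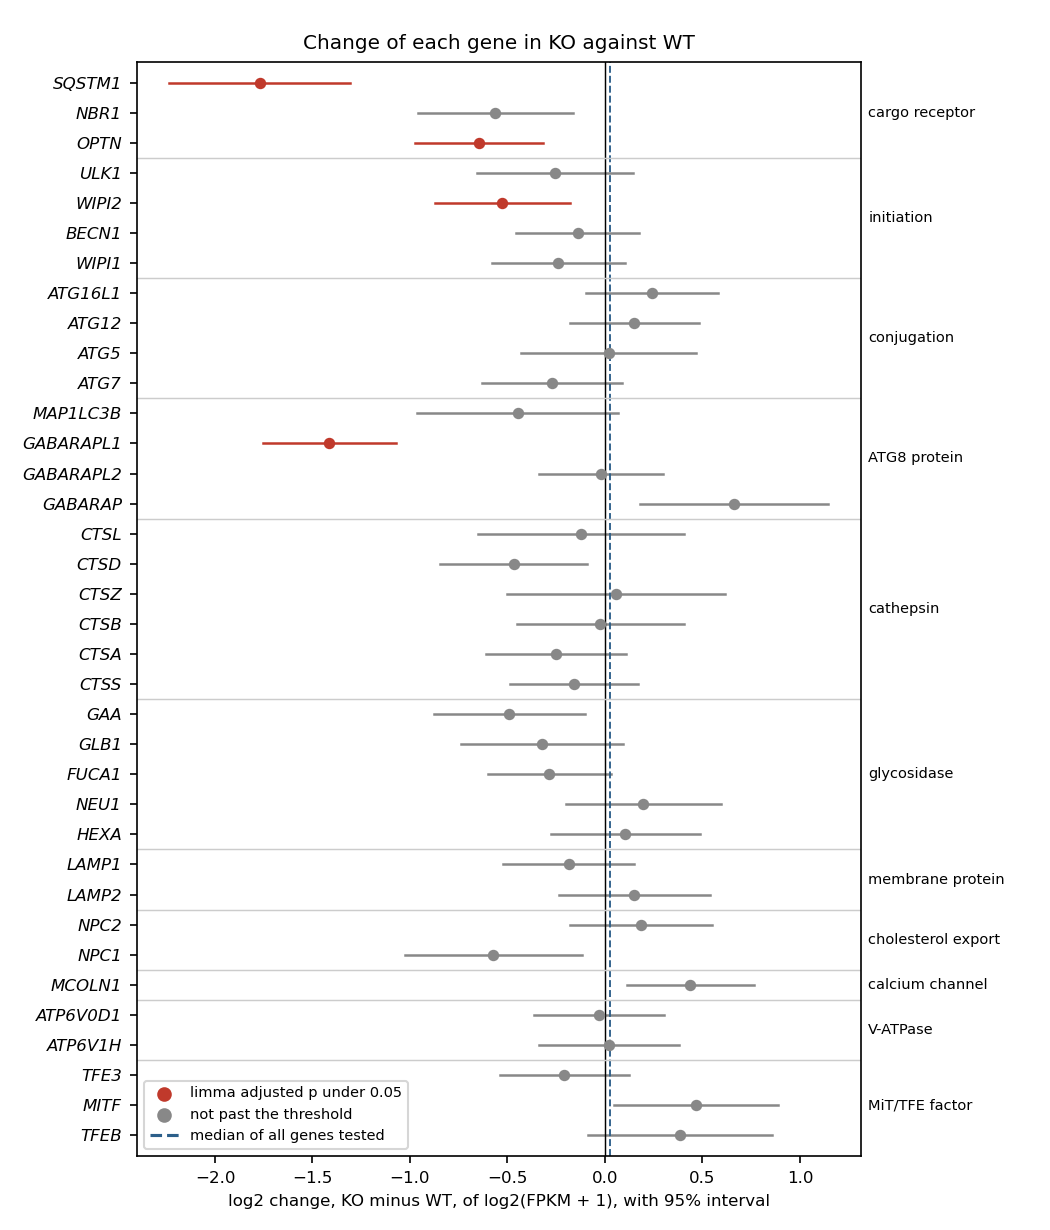
Log2 change of each gene, KO minus WT, with its 95% interval from the fit (n = 2 per group). Red marks the 4 genes past the threshold, all with intervals below 0, and the dashed line marks the median of all genes tested, 0.03.

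The promoter sequences of the 4 genes that fell are shown because their start regions allow a search for binding motifs of the factors that act on this pathway and on stress genes. Windows of 300 bases around the start (250 before, 50 after), from RefSeq on GRCh38.p14, matched 31 of the 36 genes, with 42 windows. Each line gives the 200 bases before the start site nearest to the principal GENCODE transcript, on the plus strand in all 4 cases, at chr5:179820705-179820904 (SQSTM1), chr12:10212677-10212876 (GABARAPL1), chr10:13099963-13100162 (OPTN) and chr7:5190033-5190232 (WIPI2). Capitals mark a motif found.
SQSTM1: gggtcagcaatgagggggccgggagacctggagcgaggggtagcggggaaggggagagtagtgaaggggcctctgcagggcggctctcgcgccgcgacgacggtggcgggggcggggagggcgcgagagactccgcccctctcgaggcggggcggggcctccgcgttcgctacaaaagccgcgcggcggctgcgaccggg
GABARAPL1: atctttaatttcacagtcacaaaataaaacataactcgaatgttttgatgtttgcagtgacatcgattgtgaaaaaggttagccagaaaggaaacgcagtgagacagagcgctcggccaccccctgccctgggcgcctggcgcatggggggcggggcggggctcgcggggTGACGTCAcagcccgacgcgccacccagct
OPTN: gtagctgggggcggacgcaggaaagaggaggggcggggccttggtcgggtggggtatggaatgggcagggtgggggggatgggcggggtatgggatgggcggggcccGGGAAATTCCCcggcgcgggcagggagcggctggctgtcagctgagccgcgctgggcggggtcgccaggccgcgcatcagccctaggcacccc
WIPI2: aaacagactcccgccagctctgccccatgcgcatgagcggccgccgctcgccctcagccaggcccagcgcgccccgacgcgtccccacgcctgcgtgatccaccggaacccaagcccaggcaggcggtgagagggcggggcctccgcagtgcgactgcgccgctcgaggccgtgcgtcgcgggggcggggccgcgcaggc
The motifs searched, on both strands of the whole windows, were the E-box CACGTG, the CLEAR palindrome (that E-box preceded by GT and followed by AC), the cAMP response element TGACGTCA, the AP-1 element TGACTCA, the antioxidant response core TGACNNNGC and the kappa B motif. GABARAPL1 held a cAMP response element starting 30 bases before its start, a motif in the windows of 2.25% of 27305 genes. OPTN held a kappa B motif, read in overlapping frames as 2 matches from 93 bases before its start, a motif found for 7.09% of genes. SQSTM1, in 3 windows, and WIPI2, in 2, held none of these letters. A match describes letters in a window, not a bound site.

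The 3 cargo receptors had the most negative median of any role, a log2 change of -0.65. SQSTM1 encodes p62, a receptor for ubiquitinated cargo that is itself degraded by autophagy. It had 37.8 and 50.4 FPKM in KO, against 155 and 148 FPKM in WT. Both KO libraries stood far below both WT libraries. Its mean was 44.1 ± 8.91 FPKM in KO and 151 ± 4.84 FPKM in WT (SD, n = 2 each), 3.43-fold lower in KO (log2 change -1.77 with SE 0.19, limma adjusted p = 0.00507). In WT libraries it was the most abundant of the 36 genes, and in KO libraries it ranked 5 of 36, behind CTSL, CTSD, CTSZ and CTSB. Its log2 change ranked 133 from the most negative among the 14100 genes tested. The call held under every alternative except with no filter on low values, where the adjusted p was 0.0501. SQSTM1 (ENSG00000161011, chr5:179806398-179838078, plus strand, GRCh38) overlaps MGAT4B on the opposite strand, a gene at 37.0 and 35.8 FPKM in KO and 54.7 and 43.8 FPKM in WT. Whether counting used strand is not given in the sources used here, so reads of overlapping genes may be shared. Annotated neighbours on the opposite strand also overlap MAP1LC3B (FBXO31), ATG7 (VGLL4), ATG12 (AP3S1), BECN1 (PSME3), NPC1 (RMC1), NPC2 (ISCA2) and, among the genes named below, WDR45B (FOXK2), CCPG1 (PIGB), ATP6V1E2 (RHOQ) and NAGPA (ALG1).

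OPTN, optineurin, is a receptor in the clearance of mitochondria and bacteria. It had 15.1 FPKM in each KO library, against 25.4 and 23.1 FPKM in WT. The KO libraries were nearly equal and both lay below WT. It was 1.60-fold lower in KO (log2 change -0.65 with SE 0.13, limma adjusted p = 0.0243). The call was lost without WT replicate 1, without WT replicate 2 and without KO replicate 1 (adjusted p = 0.209, 0.129 and 0.0521), and with no filter on low values (adjusted p = 0.0622).

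NBR1, a receptor that acts beside p62, had 18.6 and 15.1 FPKM in KO, against 26.8 and 23.8 FPKM in WT. Both KO libraries were below both WT libraries, but the log2 change of -0.56 (95% interval -0.96 to -0.16) did not pass (limma adjusted p = 0.057). It passed with scaling by total reads (adjusted p = 0.0485), with limma voom (adjusted p = 0.0174) and without KO replicate 1 (adjusted p = 0.0487), and reached an adjusted p of 0.32 without WT replicate 1. The summed level of the 3 receptors was 71.4 and 80.6 FPKM in KO and 207 and 195 FPKM in WT, the KO mean being 0.379 times the WT mean. SQSTM1 made up 52.8% and 62.4% of that sum in KO and 74.8% and 75.9% in WT.

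**Figure D3:**
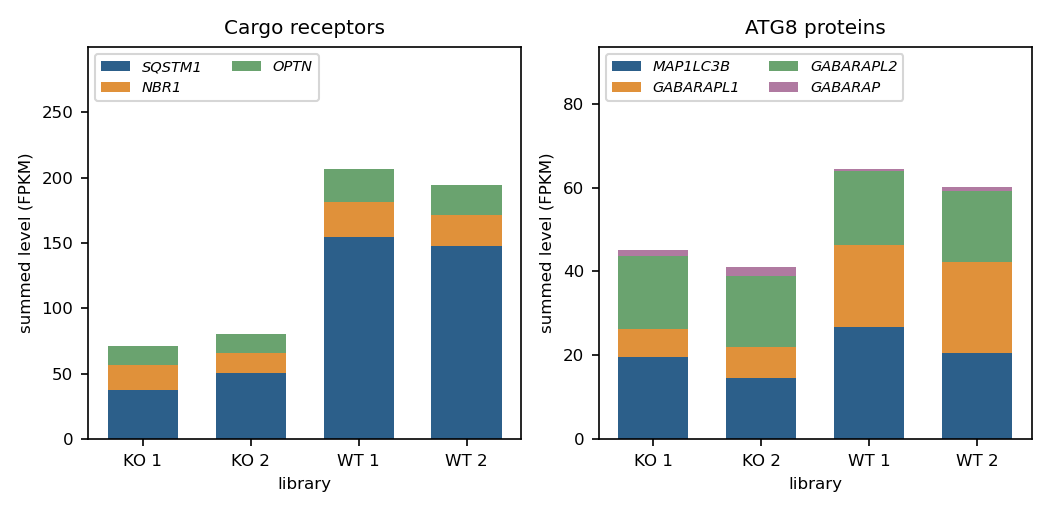
Summed FPKM of the 3 cargo receptors (left) and of the 4 ATG8 genes (right) in each KO and WT library, stacked by gene. The left bars reach 71.4 and 80.6 FPKM in KO against 207 and 195 FPKM in WT, mostly through SQSTM1, and the right bars show the GABARAPL1 layer narrower in KO while the GABARAPL2 layer is alike.

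Of the 4 ATG8 genes, whose products are coupled to the membrane lipid and bind the receptors, 1 fell. GABARAPL1 had 6.75 and 7.47 FPKM in KO, against 19.6 and 21.6 FPKM in WT. The groups were well separated and the libraries within each close together. It was 2.90-fold lower in KO, which is a log2 change of -1.41 ± 0.14 (SE, n = 2 each, limma adjusted p = 0.00436), and it was the only one of the 36 genes called under each of the 12 alternatives (highest adjusted p = 0.0475). GABARAPL3, a processed pseudogene of it, was at 0 in every library. The gene (ENSG00000139112) lies at chr12:10212458-10223130 on the plus strand.

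GABARAPL2, its close relative, stood at 17.3 and 17.0 FPKM in KO, against 17.6 and 17.1 FPKM in WT. The libraries overlapped, and the interval of the log2 change ran from -0.34 to 0.30 (limma adjusted p = 0.93). MAP1LC3B, which encodes the LC3B protein used to count autophagosomes, had 19.6 and 14.5 FPKM in KO, against 26.6 and 20.5 FPKM in WT. Replicate 1 was the higher library in each group, both KO values lay below both WT values, and the log2 change of -0.45 (95% interval -0.96 to 0.07) did not pass (limma adjusted p = 0.172). The copy MAP1LC3B2 was measured at up to 2.54 FPKM, and reads may be split between these genes.

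GABARAP went the other way from a low level. It had 1.51 and 2.155 FPKM in KO, against 0.653 and 0.915 FPKM in WT, from 201 reads in all 4 libraries together. Both KO libraries were above both WT libraries, with a log2 change of 0.66 (95% interval 0.18 to 1.14) short of the threshold (limma adjusted p = 0.0609). It passed with quantile normalization (adjusted p = 0.0485) and with limma voom on recovered reads (adjusted p = 0.0421). GABARAP met the filter on low values only through the KO libraries, where it was higher, so its interval and these calls support nothing. A protein-coding annotation on the same strand, AC120057.2, overlaps it and had 0 reads, and how shared reads were counted is not given in the sources used here. Summed over the 4 genes the ATG8 level was 45.1 and 41.1 FPKM in KO, against 64.5 and 60.1 FPKM in WT. GABARAPL1 supplied 14.96% and 18.2% of it in KO and 30.3% and 35.96% in WT, whereas GABARAPL2 supplied 38.3% and 41.2% in KO and 27.3% and 28.4% in WT.

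Among the genes that start the membrane, WIPI2, which binds the phosphoinositide of the forming membrane and recruits ATG16L1, had 7.68 and 8.57 FPKM in KO, against 12.8 and 11.5 FPKM in WT. Both KO libraries were lower. The log2 change was -0.53 (with SE 0.14, limma adjusted p = 0.0464), a 1.496-fold lower level at the edge of the threshold. The call was lost without WT replicate 1, WT replicate 2, KO replicate 1 or KO replicate 2 (adjusted p = 0.31, 0.181, 0.107 and 0.0588), with no filter on low values (adjusted p = 0.102) and with a constant prior (adjusted p = 0.054). ULK1, the initiating kinase, averaged 20.6 ± 1.43 FPKM in KO and 24.9 ± 3.65 FPKM in WT (SD, n = 2 each). BECN1, the Beclin 1 subunit, averaged 7.63 FPKM in KO and 8.50 FPKM in WT, and WIPI1 6.69 FPKM in KO and 8.09 FPKM in WT. These 3 genes had both KO libraries below both WT libraries, yet none passed (limma adjusted p = 0.29, 0.467 and 0.252).

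None of the 4 conjugation genes passed, and their median log2 change was 0.08. ATG5 was nearly equal in the groups, at 6.82 and 5.32 FPKM in KO and 6.71 and 5.24 FPKM in WT. ATG12, the ubiquitin-like partner of ATG5, averaged 6.84 FPKM in KO and 6.06 FPKM in WT, and ATG16L1, the scaffold of the complex, 9.28 FPKM in KO and 7.69 FPKM in WT. ATG7 averaged 2.71 FPKM in KO and 3.50 FPKM in WT. The intervals of the 4 log2 changes lay between -0.63 and 0.58, so changes up to those sizes are not excluded by these libraries.

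None of the lysosomal enzymes, 6 cathepsins and 5 glycosidases, passed the test. Cathepsins are the proteases of the lysosome, and 4 of the 6 lay above 60 FPKM in every library. CTSD, the aspartic protease cathepsin D, had 73.4 and 83.1 FPKM in KO, against 111 and 106 FPKM in WT. Both KO libraries were below both WT libraries, but the log2 change of -0.47 (95% interval -0.85 to -0.09) did not pass (limma adjusted p = 0.0776). It passed with quantile normalization (adjusted p = 0.0358) and with limma voom (adjusted p = 0.0282). A sense intronic annotation within it, AC068580.1, stood at 2.27 and 6.54 FPKM in KO and 14.8 and 13.6 FPKM in WT, so reads could be split between the entries.

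CTSL and CTSB, cysteine proteases of broad specificity, overlapped between the groups. CTSL had 91.2 and 131 FPKM in KO, against 121 and 117 FPKM in WT, and the KO libraries differed from each other by more than the groups did. CTSB had 61.5 and 77.7 FPKM in KO, against 72.8 and 68.0 FPKM in WT. CTSZ, a carboxypeptidase, had 62.4 and 89.0 FPKM in KO and 64.4 and 79.7 FPKM in WT, with replicate 2 higher in each group. CTSA, the protective protein that stabilises beta-galactosidase and neuraminidase, averaged 22.8 ± 1.72 FPKM in KO and 27.3 ± 2.21 FPKM in WT, and CTSS 9.79 ± 0.674 FPKM in KO and 11.04 ± 0.407 FPKM in WT (SD, n = 2 each). The 5 cathepsins other than CTSD had limma adjusted p of 0.252 or more. The sum of the 6 cathepsins was 320.3 and 414 FPKM in KO and 409.6 and 407 FPKM in WT, so the spread between the KO libraries was wider than the difference between the groups.

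Glycosidases remove sugars from glycoproteins and glycolipids. GLB1, beta-galactosidase, had 26.8 and 25.8 FPKM in KO, against 37.4 and 29.2 FPKM in WT. Both KO libraries lay below both WT libraries, and the WT libraries differed from each other by more than WT replicate 2 differed from KO. The log2 change was -0.32 (95% interval -0.74 to 0.09), which did not pass (limma adjusted p = 0.215) under any of the 12 alternatives (highest adjusted p = 0.765). GLB1 (ENSG00000170266) spans chr3:32996608-33097230 on the minus strand.

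GAA, the acid glucosidase that digests glycogen, had 24.9 and 29.8 FPKM in KO, against 40.6 and 36.8 FPKM in WT. The groups did not overlap, yet the log2 change of -0.49 (95% interval -0.88 to -0.10) did not pass (limma adjusted p = 0.0741), although it did with quantile normalization (adjusted p = 0.0456) and with limma voom (adjusted p = 0.0282). FUCA1, which removes fucose, averaged 14.5 ± 0.456 FPKM in KO and 17.9 ± 0.226 FPKM in WT (SD, n = 2 each, limma adjusted p = 0.162). NEU1, a sialidase, averaged 9.62 FPKM in KO and 8.21 FPKM in WT, and HEXA, the alpha subunit of hexosaminidase, 5.38 FPKM in KO and 4.96 FPKM in WT, with overlapping libraries in each case. Summed, the 5 glycosidases reached 80.7 and 85.7 FPKM in KO and 109.8 and 96.5 FPKM in WT.

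LAMP1 and LAMP2 are the major glycoproteins of the lysosomal membrane. LAMP1 had 35.7 and 37.2 FPKM in KO, against 43.0 and 40.3 FPKM in WT, with KO below WT in both libraries and a log2 change of -0.19 (95% interval -0.52 to 0.15, limma adjusted p = 0.362). LAMP2 had 37.8 and 32.6 FPKM in KO, against 33.8 and 29.4 FPKM in WT, and its libraries overlapped (log2 change 0.15, 95% interval -0.24 to 0.54). The pair therefore leaned in opposite directions, neither past the threshold. The V-ATPase subunits ATP6V0D1 and ATP6V1H, parts of the pump that acidifies the lysosome, had log2 changes of -0.03 and 0.02, with intervals between -0.36 and 0.38.

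NPC1 and NPC2 pass cholesterol out of the lysosome, NPC2 in the lumen and NPC1 in the membrane. NPC1 had 7.06 and 6.26 FPKM in KO, against 12.1 and 8.86 FPKM in WT, and NPC2 had 40.3 and 44.6 FPKM in KO, against 39.2 and 35.3 FPKM in WT. NPC1 was lower in both KO libraries (log2 change -0.57, limma adjusted p = 0.0738), and passed with limma voom (adjusted p = 0.022). NPC2 was higher in both (log2 change 0.18, limma adjusted p = 0.398). MCOLN1, the lysosomal calcium channel, had 3.998 and 4.09 FPKM in KO, against 2.67 and 2.78 FPKM in WT. The libraries of each group were tightly grouped and did not overlap, with a log2 change of 0.44 (95% interval 0.11 to 0.76, limma adjusted p = 0.0637). MCOLN1 overlaps PNPLA6 on the same strand, at 16.1 and 15.4 FPKM in KO and 24.9 and 21.0 FPKM in WT.

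None of the 3 transcription factors passed in limma, where 1 (MITF) had an unadjusted p under 0.05. TFEB, best known for driving lysosome genes, had 1.44 and 2.18 FPKM in KO, against 1.10 and 1.17 FPKM in WT. Both KO libraries were above WT but far apart from each other, with a log2 change of 0.39 (95% interval -0.09 to 0.86, limma adjusted p = 0.194). TFE3 was the most abundant of the 3 and had 31.0 and 32.9 FPKM in KO, against 36.75 and 37.4 FPKM in WT, a log2 change of -0.21 (limma adjusted p = 0.299). MITF had 10.7 and 8.12 FPKM in KO, against 6.15 and 6.81 FPKM in WT, a log2 change of 0.47 (limma adjusted p = 0.102). RNA levels do not show where these proteins are in the cell, which is the step that nutrient signalling is known to control.

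The E-box is the motif this factor family is known to bind. CACGTG was in the windows of 7 of the 13 matched lysosomal genes and 0 of the 15 autophagy factors, and the share over all 27305 genes was 8.77%. LAMP1 held 6 copies, CTSA, GAA and MCOLN1 held 2 each, and CTSD, NEU1 and ATP6V0D1 held 1. The CLEAR palindrome was present for GAA and MCOLN1, and for 0.421% of all genes. A split of this kind was not particular to the E-box. The antioxidant response core was in the windows of 9 of the 13 matched lysosomal genes and 1 of the 15 autophagy factors, against 16.1% of all genes. Of the genes with several copies, CTSA, GAA and MCOLN1 are shown by the copy nearest the start. LAMP1 is shown by the copy 28 bases before the start, not by the nearest, at 1 base. Its copies farther upstream have gt before the E-box, unlike the copy shown. The stretches below show 1 E-box for each gene that held any, 30 bases with the E-box in capitals, to let the flanks be compared. On GRCh38.p14 they lie at chr13:113297199-113297228 (LAMP1, plus strand), chr20:45891298-45891327 (CTSA, plus), chr11:1763957-1763986 (CTSD, minus), chr6:31862930-31862959 (NEU1, minus), chr17:80101538-80101567 (GAA, plus), chr19:7522598-7522627 (MCOLN1, plus) and chr16:67481199-67481228 (ATP6V0D1, minus).
LAMP1: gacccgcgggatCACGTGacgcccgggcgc
CTSA: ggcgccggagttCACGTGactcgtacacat
CTSD: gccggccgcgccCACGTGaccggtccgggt
NEU1: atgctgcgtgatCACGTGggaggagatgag
GAA: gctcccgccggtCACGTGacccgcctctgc
MCOLN1: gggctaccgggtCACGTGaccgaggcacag
ATP6V0D1: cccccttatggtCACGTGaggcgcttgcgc
The 7 genes with an E-box had log2 changes from -0.49 (GAA) to 0.44 (MCOLN1), with a median of -0.19 and 0 called. The 6 matched lysosomal genes without one (CTSL, CTSZ, GLB1, FUCA1, NPC1 and NPC2) had changes from -0.57 to 0.18, with a median of -0.20 and 0 called. No window was on hand for LAMP2, CTSB, CTSS, HEXA and ATP6V1H.

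The other genes of the pathway were followed in 8 lists, 188 genes in all, of which 174 passed the filter. Of those, 7 rose (4.02%) and 20 fell (11.5%), against 12.1% and 11.1% of all genes, with a median log2 change of -0.11. These counts, like those over all genes, became smaller when any single library was left out. Of the 22 genes that the naming rule picked from these lists, PHB2, RRAGA, VAMP8, CSTA and CST1 kept their calls without any 1 library, and 17 lost theirs without at least 1. With no filter on low values 18 of the 22 lost theirs, CSTA and CST1 among them (adjusted p = 0.0501 to 0.138). CSTA and CST1 passed that filter only through the WT libraries, where they were higher. Their calls, kept or lost, and their part in the 20 that fell therefore support nothing. Losses on leaving out a library numbered 17 without WT replicate 1 (adjusted p = 0.0599 to 0.301), 13 without WT replicate 2 (0.0572 to 0.272), 6 without KO replicate 1 (0.0506 to 0.0998) and 10 without KO replicate 2 (0.0548 to 0.115).

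**Figure D4:**
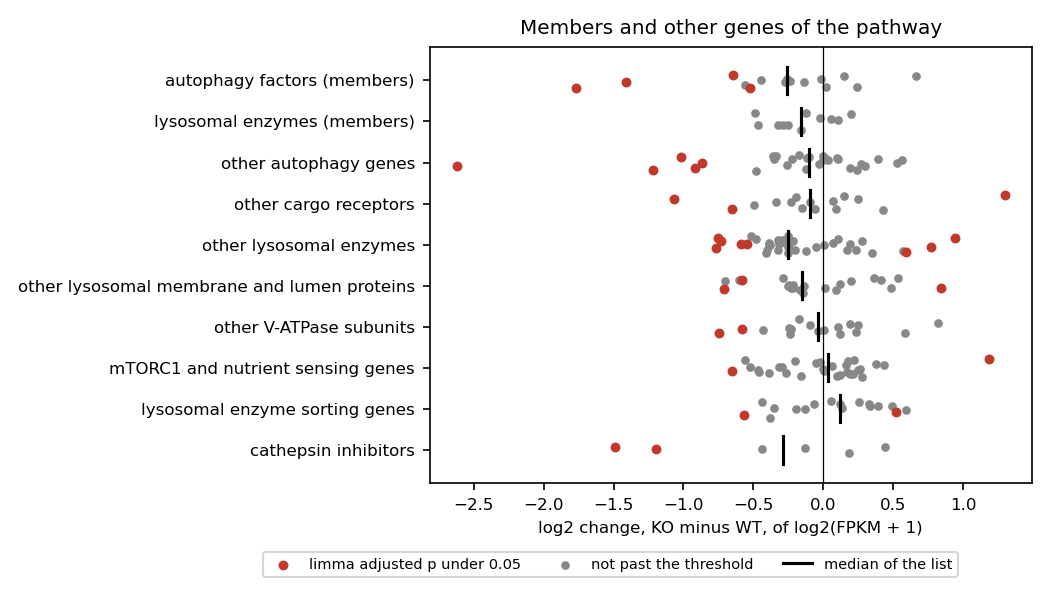
Log2 changes, KO minus WT, of the autophagy factors and lysosomal enzymes and of the 8 lists of other pathway genes, with 1 point per gene tested, red where the limma adjusted p was under 0.05, and a bar at each median. The leftmost point is VAMP8 at -2.62, and list medians lie between -0.29 and 0.12. The lowest median is that of the 6 cathepsin inhibitors, which include CSTA and CST1. These cystatins passed the filter on low values only through the WT libraries, where they were higher, so that median supports nothing.

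Of 29 other autophagy genes tested, 5 fell (17.2%) and 0 rose in limma, against 11.1% and 12.1% of all genes. Their median log2 change was -0.10, and 9 had an unadjusted p under 0.05. VAMP8, a SNARE protein of fusion between autophagosome and lysosome, had 1.56 and 2.65 FPKM in KO, against 15.3 and 20.6 FPKM in WT. It was 8.55-fold lower in KO (log2 change -2.62 with SE 0.23, limma adjusted p = 0.00405). MAP1LC3A, another LC3 gene, had 3.63 and 5.44 FPKM in KO, against 12.1 and 11.3 FPKM in WT, 2.59-fold lower. The WIPI relatives WDR45B and WDR45 were 2.07-fold and 2.01-fold lower, at 24.7 and 7.52 FPKM in KO against 51.1 and 15.2 FPKM in WT. WDR45 overlaps PRAF2 on the same strand, at 7.95 to 8.78 FPKM in KO and 11.1 to 12.9 FPKM in WT.

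Of 15 other cargo receptors, 2 fell and 1 rose (13.3% and 6.67%), against 11.1% and 12.1% of all genes, and the median was -0.09. CCPG1, a receptor for the endoplasmic reticulum, had 6.96 and 4.82 FPKM in KO, against 15.5 and 11.3 FPKM in WT, 2.27-fold lower (limma adjusted p = 0.0258). TEX264, another receptor of the endoplasmic reticulum, was 1.62-fold lower at the edge of the threshold (limma adjusted p = 0.0471). PHB2, a mitochondrial protein with a receptor role in mitophagy, had 76.4 and 88.6 FPKM in KO, against 33.1 and 32.7 FPKM in WT, 2.51-fold higher (limma adjusted p = 0.00584).

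Of 38 other lysosomal enzymes tested, 5 fell and 3 rose (13.2% and 7.89%), against 11.1% and 12.1% of all genes. Their median was -0.25, and their difference from the 11 enzymes above was not tested. PPT2, a thioesterase, was 1.99-fold lower, at 2.30 FPKM in KO and 4.57 FPKM in WT. GLA, an alpha-galactosidase, had 34.6 and 35.8 FPKM in KO, against 17.4 and 18.1 FPKM in WT, 1.98-fold higher (limma adjusted p = 0.00902), and the cysteine cathepsin CTSV was 2.28-fold higher, at 2.78 FPKM in KO and 1.22 FPKM in WT.

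Of 22 other membrane and lumen proteins tested, 2 fell and 1 rose (9.09% and 4.55%), against 11.1% and 12.1% of all genes. CLCN7, a chloride and proton exchanger of the lysosome, averaged 11.5 FPKM in KO and 17.7 FPKM in WT, and PLEKHM1, an adaptor for lysosome fusion, 4.58 FPKM in KO and 8.12 FPKM in WT. PLEKHM1 has a pseudogene copy, PLEKHM1P1, at up to 3.27 FPKM. CLN6, a membrane protein of the endoplasmic reticulum needed for enzyme transport, averaged 7.21 FPKM in KO and 3.59 FPKM in WT. Of 17 other V-ATPase subunits tested, 2 fell (11.8%) and 0 rose in limma, against 11.1% and 12.1% of all genes. Their median was -0.04, and 5 had an unadjusted p under 0.05. ATP6V0A1 averaged 8.52 FPKM in KO and 14.9 FPKM in WT, and ATP6V1E2 1.95 FPKM in KO and 3.39 FPKM in WT.

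Among 30 genes of mTORC1 and nutrient sensing tested, 1 rose and 1 fell (3.33% each), against 12.1% and 11.1% of all genes. The median was 0.03. RRAGA, a GTPase that recruits mTORC1 to the lysosome, had 63.5 and 59.8 FPKM in KO, against 26.5 and 26.3 FPKM in WT, 2.33-fold higher (limma adjusted p = 0.00574). RPTOR, the raptor subunit, had 6.55 and 6.61 FPKM in KO, against 11.2 and 10.6 FPKM in WT, 1.66-fold lower (limma adjusted p = 0.0208). Of 17 sorting genes, 1 rose and 1 fell (5.88% each), against 12.1% and 11.1% of all genes. AP1B1, an adaptor subunit, rose to 13.8 FPKM in KO, against 9.30 FPKM in WT. NAGPA, an enzyme of the mannose 6-phosphate tag, fell to 2.89 FPKM in KO, against 4.75 FPKM in WT. The AP1B1 call was lost under 8 of 12 alternatives. Of 6 cathepsin inhibitors tested, 2 fell (33.3%) and 0 rose in limma, against 11.1% and 12.1% of all genes (4 had an unadjusted p under 0.05). The cystatins CSTA and CST1 were low throughout, and passed the filter on low values only through the WT libraries, where they were higher, so their calls and the count of 2 support nothing: CSTA had 1 read in each KO library and 1.56 and 2.36 FPKM in WT, and CST1 had 1 and 0 reads in KO and 1.63 and 1.12 FPKM in WT, with log2 changes of -1.49 and -1.19.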

How the data were processed

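RNA from 4 libraries of HFL1 cells, 2 labelled KO and 2 WT, was sequenced in paired-end mode, per the labels' protocols. Alignment used HISAT2 2.0.5, with hg38 and mm10 named as builds, per the submitters' processing notes. The values used are the FPKM values the authors deposited. How reads were counted and scaled is not given in the sources used here. Deposited FPKM times gene length gave whole multiples of a single step per library for 100% of values above 0 (tolerance 0.01), from which reads were recovered. Median-of-ratios size factors computed on these values were equal (1.0046 each), so a scaling of that kind was already in them. Gene coordinates are those of the table.

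Values were analysed as log2(FPKM + 1) with limma 3.58.1 in R 4.3.3, with a trend in the prior variance (df 3.54, against 2 residual df), over 14100 genes with at least 1 FPKM in at least 2 libraries, with calls at an adjusted p (Benjamini-Hochberg) under 0.05. This scale understates changes of low genes. Folds are ratios of mean FPKM. The 12 alternatives changed the pseudocount, filter, scaling, prior, block or libraries, or used limma voom on recovered reads. Intervals are 95% intervals of the fit. An exact two-sided permutation test of 2 against 2 libraries cannot go below p = 0.333. The genes and lists were chosen with earlier results of these data known. Named were the 36 genes, CALU and, from each list of other pathway genes, up to 4 called genes by size of log2 change. A gene that this rule picks is not reported here. MGAT4B, MAP1LC3B2 and other overlapping genes or copies, and the marker genes, were named after their values were seen.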

Additional observations from a re-analysis of the deposited data

How the results depend on the processing

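Of 696 values (58 named genes under 12 alternatives) 677 kept their sign. The 19 that turned belonged to 8 genes with no call: ATG5 (-0.024 with total-read scaling, -0.017 with quantile normalization, -0.030 with limma voom), CTSZ (-0.021 with quantile normalization), ATP6V1H (-0.024 with total-read scaling, -0.028 with limma voom) and, leaving out 1 library, GABARAPL2 (-0.041 to 0.0035), ATG5 (-0.13 to 0.17), CTSB (-0.19 to 0.14), CTSL (-0.38 to 0.13), CTSZ (-0.20 to 0.31), HEXA (-0.026 to 0.23), ATP6V1H (-0.10 to 0.14) and ATP6V0D1 (-0.10 to 0.043), all as log2 changes. Without the FPKM filter, 32306 genes were tested and 183 were higher and 193 lower, with 1 of the 36 genes (an autophagy factor) lower and 3 higher and 1 lower of the other pathway genes. With quantile normalization 1 of the 36 was higher, an autophagy factor (GABARAP, which met the filter only through the KO libraries), and 2 enzymes were lower. With limma voom 1 of the 36, again an autophagy factor, was higher and 8 lower, 2 of these enzymes, and 14 of the other pathway genes were higher and 33 lower. The cause of these differences was not tested. With a replicate block 2968 genes were higher and 2577 lower, 3 of the 36 were higher (GABARAP, MCOLN1 and MITF) and 9 lower (the 4 called without it, NBR1, MAP1LC3B, CTSD, GAA and NPC1), and 20 of the other pathway genes were higher and 38 lower. Replicate numbers are not stated to pair libraries, and the correlation of same-numbered deviations was 0.411 over 14100 genes. Leaving out 1 library gave 505 to 1321 higher and 537 to 1260 lower genes, 2 to 3 of the 36 lower, all autophagy factors, and 2 to 6 higher and 3 to 15 lower of the other pathway genes. Among these the count of all genes was lowest without WT replicate 1 (505 and 537) and without WT replicate 2 (677 and 614). Without SQSTM1 and GABARAPL1, an alternative chosen after seeing the data, the KO minus WT difference of the enzymes-minus-factors gap was -0.0039. They had the most negative changes of the factors, so leaving them out had to lower that difference. CALU was called under every alternative run. GABARAP (201 reads) and TFEB (565 reads) rest on the fewest reads among the 36 genes.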
